A study of Homo sapiens with 18 samples.

Results

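The genes described here carry peptides to the cell surface on MHC class I molecules: the heavy chains HLA-B, HLA-C, HLA-E and HLA-F, the light chain B2M, the peptide transporter TAP1 and TAP2, the loading factor TAPBP (tapasin) and the immunoproteasome subunit PSMB9. They were chosen by name, 9 of 19775 genes with a probe set of their own on the array, and each was read from its probe set with the highest mean over all arrays. All 9 lay above the filter on low values, as did 12171 genes in all. The probe sets used for the 4 HLA genes are marked by the manufacturer as able to bind other genes (names ending in x_at), so a value given for one HLA gene can hold signal from another. Those of B2M and TAP1 are marked as binding several transcripts (s_at), and those of TAP2, TAPBP and PSMB9 carry no mark. On assembly GRCh38.p14 the genes lie at chr6:31353875-31357179 (HLA-B), chr6:31268749-31272092 (HLA-C), chr6:30489509-30494194 (HLA-E), chr6:29723434-29738532 (HLA-F), chr15:44711517-44718145 (B2M), chr6:32845209-32853704 (TAP1), chr6:32821831-32838739 (TAP2), chr6:33299694-33314078 (TAPBP) and chr6:32854192-32859851 (PSMB9).

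Expression was measured on 18 arrays of 3 human mammary epithelial lines. M1B26 was made from MCF10A cells sorted for the BMP receptor BMPR1B and then exposed to BMP2 and IL6. MC26 was made with the same factors without that sort. The study calls both exposures long-term, but reports much faster transformation of the BMPR1B-sorted cells, within a few weeks. MCF10A-CT, the nonmalignant immortalised MCF10A line, was kept in standard medium. IL6 was given at 10 ng/ml, while the labels state both 5 ng/ml and 10 ng/ml for BMP2. According to the study's methods M1B26 was expanded from a few clones picked in soft agar, so that it stands for these clones, and MC26 and M1B26 are each a single derived line. Each line was profiled as CD10+ cells, CD10- cells and unsorted cells, which makes 9 groups of 2 arrays labelled as biological replicates. CD10, encoded by MME, is a membrane peptidase found on immature and myoepithelial mammary cells. In such mixed populations fewer cells with a transcript and less of it per cell cannot be told apart.

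A class I molecule is a heavy chain paired with B2M around a short peptide. Proteasomes cut cytosolic proteins, and under interferon the subunit PSMB9 replaces a constitutive one; TAP1 and TAP2 form the pump that brings the peptides into the endoplasmic reticulum, where tapasin holds the empty heavy chain next to the pump until a peptide fits. HLA-B and HLA-C present peptides to cytotoxic T cells and are also read by natural killer cells, HLA-E shows leader peptides of other class I chains to a natural killer cell receptor, and HLA-F is a less variable chain that can reach the surface without peptide. Most of these genes answer to interferons through factors of the IRF family, to NF-kB, and to the NLRC5 complex with RFX, CREB and NF-Y at their promoters.

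The 200 bases before the transcription start are shown for the 7 members whose promoter holds an interferon regulatory factor core. These 7 include members that moved together below and members that did not. Of the 9 genes, 8 were matched in the RefSeq promoters of GRCh38.p14, and HLA-E was not. Each sequence runs 5′ to 3′ on the gene's strand. Capitals mark the core AANNGAAA of interferon regulatory factor sites, the cyclic AMP response half-site TGACG, the Y box CCAAT and the NF-kB consensus, each searched on both strands, with overlapping matches merged.
HLA-B: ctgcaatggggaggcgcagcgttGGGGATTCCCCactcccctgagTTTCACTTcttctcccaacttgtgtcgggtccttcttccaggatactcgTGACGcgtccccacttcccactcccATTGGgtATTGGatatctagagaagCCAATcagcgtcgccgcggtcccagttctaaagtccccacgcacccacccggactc
HLA-C: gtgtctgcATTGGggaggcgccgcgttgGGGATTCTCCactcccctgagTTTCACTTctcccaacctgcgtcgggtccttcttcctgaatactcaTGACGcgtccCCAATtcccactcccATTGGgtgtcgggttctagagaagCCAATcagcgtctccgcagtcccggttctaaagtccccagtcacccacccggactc
HLA-F: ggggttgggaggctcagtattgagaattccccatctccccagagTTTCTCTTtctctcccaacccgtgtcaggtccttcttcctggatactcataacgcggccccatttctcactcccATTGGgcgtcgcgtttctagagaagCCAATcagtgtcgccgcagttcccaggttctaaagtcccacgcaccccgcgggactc
B2M: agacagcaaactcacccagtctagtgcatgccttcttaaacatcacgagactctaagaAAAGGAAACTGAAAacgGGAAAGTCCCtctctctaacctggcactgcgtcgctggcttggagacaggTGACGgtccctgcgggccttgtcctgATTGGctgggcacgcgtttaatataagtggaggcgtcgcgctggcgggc
TAP1: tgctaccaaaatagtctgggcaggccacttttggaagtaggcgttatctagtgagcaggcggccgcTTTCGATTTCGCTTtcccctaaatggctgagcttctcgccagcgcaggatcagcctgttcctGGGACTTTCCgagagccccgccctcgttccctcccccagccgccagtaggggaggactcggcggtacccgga
TAP2: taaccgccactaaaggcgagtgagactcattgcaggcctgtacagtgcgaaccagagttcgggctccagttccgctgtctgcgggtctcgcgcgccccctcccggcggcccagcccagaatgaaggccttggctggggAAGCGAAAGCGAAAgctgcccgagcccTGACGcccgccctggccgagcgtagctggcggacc
TAPBP: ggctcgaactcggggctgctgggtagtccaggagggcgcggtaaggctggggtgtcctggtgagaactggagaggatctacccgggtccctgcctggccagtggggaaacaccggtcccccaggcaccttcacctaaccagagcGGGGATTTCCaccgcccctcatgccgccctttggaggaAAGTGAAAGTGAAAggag
These windows lie at chr6:31357180-31357379 (HLA-B, minus strand), chr6:31272093-31272292 (HLA-C, minus strand), chr6:29723234-29723433 (HLA-F, plus strand), chr15:44711317-44711516 (B2M, plus strand), chr6:32853705-32853904 (TAP1, minus strand), chr6:32838740-32838939 (TAP2, minus strand) and chr6:33314079-33314278 (TAPBP, minus strand). The interferon regulatory factor core was present in 7 of 8 matched members, and in 16.1% of the 35116 RefSeq promoter windows of that length. In the 3 heavy chains it ended 144 to 149 bases before the start. In B2M, TAP1, TAP2 and TAPBP it formed a pair of overlapping matches, at 129 and 135 bases, at 121 and 127 bases, at 49 and 55 bases, and at 5 and 11 bases before the start. TAP1 has a second RefSeq start, whose window held none of the 4 motifs and is not shown. The Y box was found in HLA-B, HLA-C, HLA-F and B2M but not in the windows of the transporter, tapasin or PSMB9, and 28% of all windows held it. TGACG was found in 5 members (18.4% of all windows) and the NF-kB consensus in 5 (4.21% of all windows). TAP1 and PSMB9 start on opposite strands with 487 bases between their starts. A match describes letters and is not a measured binding site.

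The arrays were scaled by the authors to a common median intensity of 16.65, and replicate arrays correlated at 0.937 to 0.954 over all probe sets (any 2 arrays at 0.901 to 0.957). MME followed the sort: it read 1021 to 1269 in CD10+ M1B26 cells against 15.95 to 56.42 in CD10- M1B26 cells, 69.85 to 90.71 in CD10+ MC26 cells against 6.392 to 27.85 in CD10- MC26 cells, and 48.3 to 65.02 in CD10+ MCF10A-CT cells against 9.732 to 11.25 in CD10- MCF10A-CT cells. The summed epithelial markers (7 genes measured) were 10450 to 11540 in CD10+ M1B26 cells and 17910 to 22560 in CD10- M1B26 cells, and in the other groups 12820 to 20240. EPCAM had a mean of 150.5 in CD10+ M1B26 cells and 2515 in CD10- M1B26 cells, and CDH1 a mean of 46.88 and 599.2. The means of KRT14 (1348 and 4386), KRT18 (2925 and 5469) and KRT5 (4733 and 6331) were also lower in CD10+ cells, and KRT5 did not pass the test. Of the 6 epithelial markers above the filter, only KRT8 went the other way (1789 and 927.4). The leukocyte markers PTPRC and LYZ were near background in every group, whereas CD14 (group means of 144.8 to 386.3) and CORO1A (23.75 to 72.93) were above it in all groups. The leukocyte list summed to 180.7 to 221.7 in CD10+ M1B26 cells and 365.8 to 490 in CD10- M1B26 cells, of which CD14 made up a mean of 144.8 in CD10+ cells and 329.3 in CD10- cells. Of 2 genes of cell division looked at after the data were seen, MKI67 read 119 to 187.6 on the 4 sorted MCF10A-CT arrays and 286.4 to 865.3 on the other 14 arrays, while TOP2A overlapped (496.5 to 937.9 and 875.7 to 1870). The part of any of these in the results below was not tested.

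Class I transcripts were abundant in every group. B2M read between 5739 and 9252 on all arrays, HLA-B between 1425 and 3999, HLA-C between 1643 and 3866, HLA-E between 694.6 and 1822 and HLA-F between 386.2 and 1071. The peptide supply genes read lower: TAP2 242.3 to 568, TAPBP 210 to 602.8, TAP1 132.7 to 460 and PSMB9 46.97 to 185.1. Intensities of different probe sets are not on a common scale, so these ranges do not rank the genes. HLA-B, HLA-C, HLA-F, B2M and TAPBP had their highest group mean in CD10+ M1B26 cells, HLA-E and TAP1 in CD10- MCF10A-CT cells, TAP2 in unsorted MC26 cells and PSMB9 in CD10- MC26 cells. In the order of the 9 group means, the arrays of neighbouring groups overlapped in 8 of 8 steps for HLA-C, in 7 for HLA-B, HLA-E, HLA-F and B2M, in 6 for TAP1 and PSMB9 and in 5 for TAP2 and TAPBP. Most neighbours in these orders thus did not differ beyond the spread of 2 arrays.

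**Figure D1:**
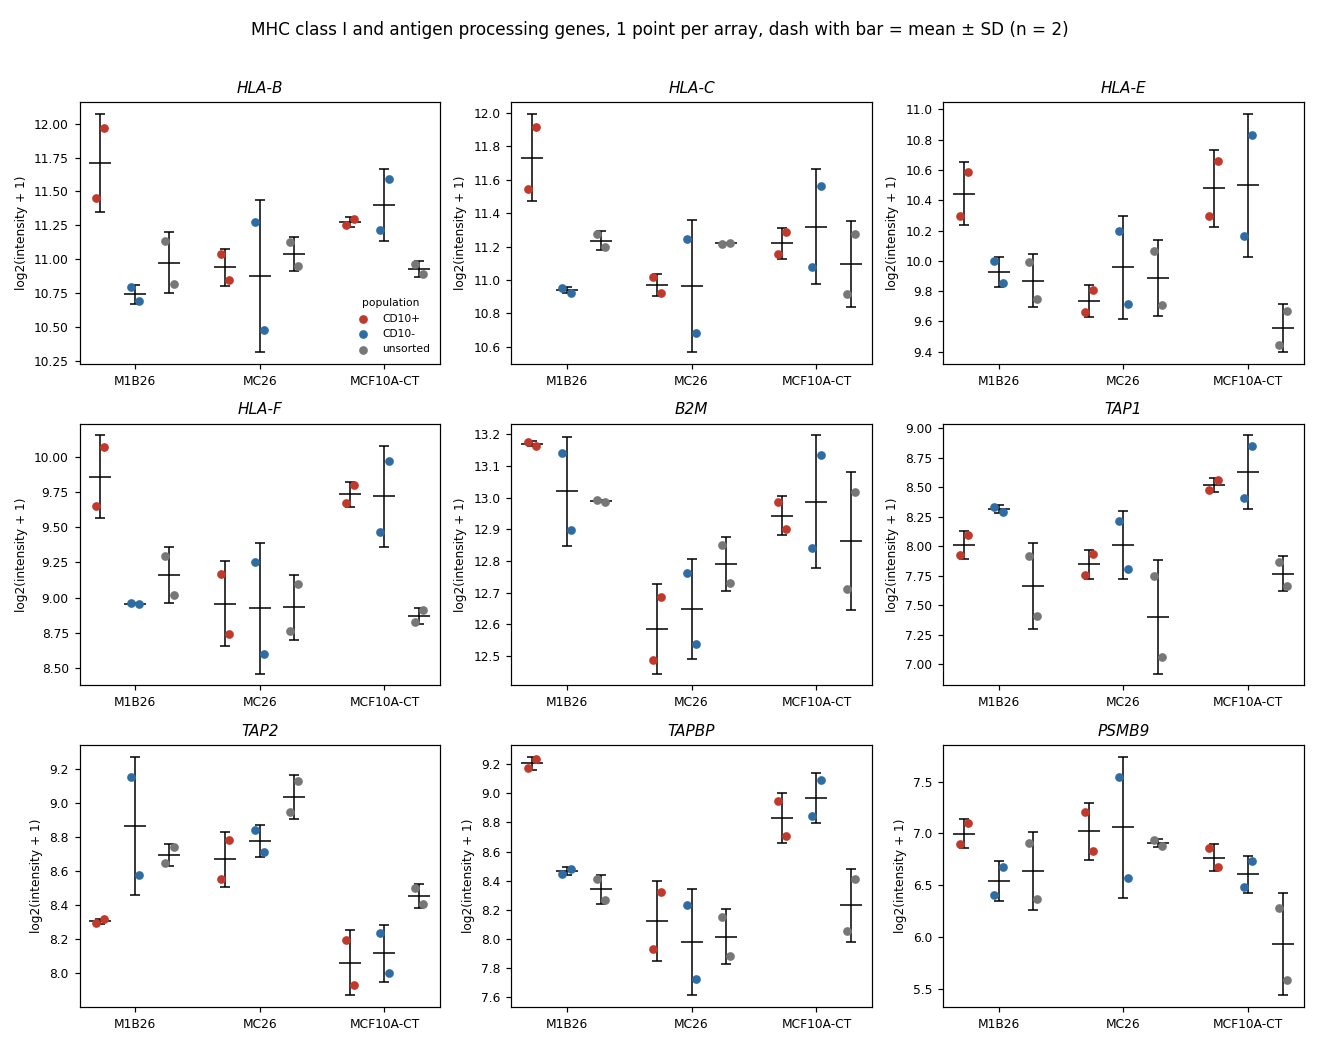
Intensity (log axis) of each of the 9 genes on each of the 18 arrays, grouped by line and by population, with a bar at the group mean. Both CD10+ M1B26 arrays lie above both CD10- M1B26 arrays for HLA-B (2802 and 3999 against 1770 and 1653), while the CD10+ and CD10- arrays of MC26 and of MCF10A-CT overlap.

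**Figure D2:**
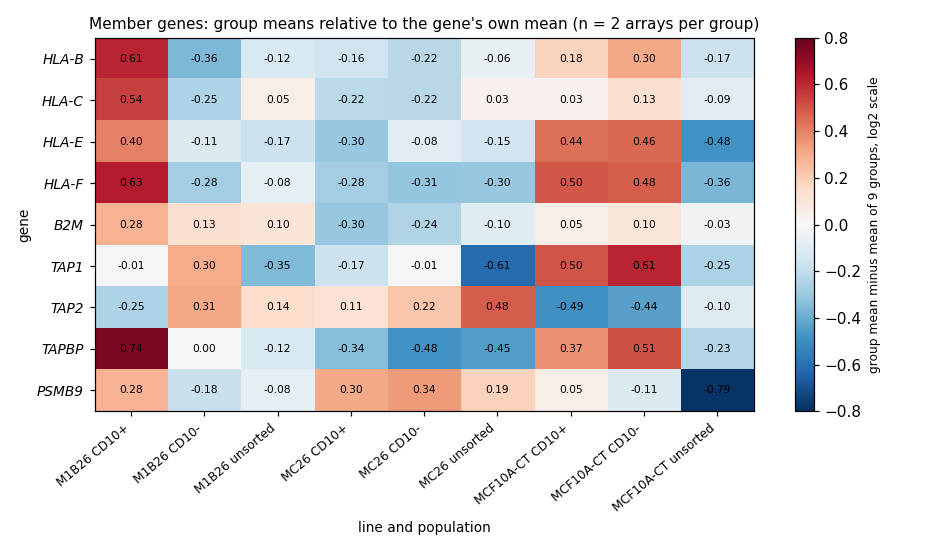
Group mean of each gene on the log2(intensity + 1) scale, each gene centred on its own mean over the 9 groups. All genes but TAP1 and TAP2 are above their mean in CD10+ M1B26 cells. TAP2 is below its mean there and in every MCF10A-CT population, least in the unsorted one (-0.10).

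Within M1B26, the CD10+ cells held more of 3 class I heavy chain transcripts than the CD10- cells. HLA-B read 2802 and 3999 in CD10+ cells, against 1770 and 1653 in CD10- cells. HLA-C gave 2991 and 3866 in CD10+ cells, against 1978 and 1943 in CD10- cells. HLA-F gave 804.8 and 1071 in CD10+ cells, against 497.3 and 494.7 in CD10- cells. For each of the 3, both CD10+ arrays were above both CD10- arrays, and the lower CD10+ array was always that of replicate 1. On the log2(intensity + 1) scale the differences were 0.97 ± 0.24 for HLA-B, 0.80 ± 0.21 for HLA-C and 0.90 ± 0.26 for HLA-F (± SE, 2 arrays a group), with adjusted p = 0.0224, 0.0336 and 0.0474 in limma (two-sided, Benjamini-Hochberg over the 12171 genes). Among all genes tested, 3.76% were called higher and 2.74% lower in this comparison. HLA-E, at 1256 and 1541 in CD10+ cells against 1021 and 924.9 in CD10- cells, was also apart, with a difference of 0.52 ± 0.25 that did not pass (adjusted p = 0.262). Leaving out each of the 18 arrays in turn, HLA-B kept its call in 15 fits, HLA-C in 14 and HLA-F in 6. Among the arrays of the 2 groups, 0 of the 9 genes passed when replicate 1 or replicate 2 of the CD10- group, or replicate 2 of the CD10+ group, was left out, and only HLA-B passed when it was replicate 1 of the CD10+ group. HLA-F was also lost without either array of unsorted MCF10A-CT, unsorted M1B26, CD10+ MCF10A-CT or CD10+ MC26 cells (adjusted p = 0.0507 to 0.0627), which enter only the estimate of the spread.

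Since HLA probe sets can bind related genes, every probe set was also fitted. The 3 probe sets of HLA-B gave differences between CD10+ and CD10- M1B26 cells of 0.97 to 1.54, and the 4 of HLA-C 0.77 to 1.17. HLA-F gave 0.65 and 0.90 with the pair above the filter. HLA-F's unmarked probe set lay under the filter and was not fitted. For HLA-E, the only heavy chain with an unmarked probe set above the filter, that probe set gave 0.71, without passing (adjusted p = 0.337). All fitted probe sets of the heavy chains were thus higher in CD10+ cells, whereas how much of each signal belongs to which HLA gene was not tested.

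The partners of the heavy chains divided. TAPBP, which holds the empty chain for loading, read 576.6 and 602.8 in CD10+ M1B26 cells, against 347.6 and 356.8 in CD10- M1B26 cells. The arrays were apart with a difference of 0.74 ± 0.23, and the test was missed (adjusted p = 0.0686). TAP2 was lower on both CD10+ arrays, at 313 and 317.6 in CD10+ cells against 568 and 380.9 in CD10- cells, a difference of -0.56 ± 0.22 (adjusted p = 0.152). TAP1 was likewise lower on both CD10+ arrays, at 242.2 and 272.1 against 322.3 and 312 in CD10- cells (-0.30 ± 0.26, adjusted p = 0.604). The light chain B2M, at 9252 and 9177 in CD10+ cells and 9030 and 7634 in CD10- cells, differed by 0.15 ± 0.15 (adjusted p = 0.659). PSMB9 gave 118.4 and 135.8 in CD10+ cells and 83.62 and 101.5 in CD10- cells (0.46 ± 0.33, adjusted p = 0.503). Over the 9 genes, 7 had CD10+ arrays apart and higher and 2 apart and lower, where 28.2% and 25.5% of all genes did. Their median difference was 0.52, beside 0.01 over all genes.

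The replicate number was kept as a block in a second fit, of the 12 sorted arrays alone. Over all genes, deviations of same-numbered CD10+ and CD10- arrays correlated in each line, most weakly in M1B26 (r = 0.184). For HLA-B, HLA-C, HLA-E and HLA-F in M1B26 they did not go together: replicate 2 was the higher CD10+ array but the lower CD10- array. In that fit 6 of the 9 genes passed in M1B26: HLA-B (adjusted p = 6.89e-06), HLA-F (7.85e-05), HLA-C (0.000365), TAPBP (0.00241) and HLA-E (0.0406) were higher in CD10+ cells, and TAP2 was lower (0.0334). It has 3 residual degrees of freedom in limma and called 2564 genes in this comparison, against 791 without the block. Its SEs were nearly the same for HLA-B (0.191), HLA-C (0.191), HLA-E (0.195) and HLA-F (0.199). These p-values therefore hold little of each gene's own replicate spread.

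In MC26 and in MCF10A-CT the CD10+ and CD10- cells did not separate by these genes. HLA-B read 2097 and 1835 in CD10+ MC26 cells, against 2477 and 1425 in CD10- MC26 cells. In MCF10A-CT it read 2434 and 2519 in CD10+ cells, against 2374 and 3084 in CD10- cells. No member had its arrays apart in either line. MME, the gene of the sort, had them apart in both, yet did not pass in limma (2.315 in MCF10A-CT and 2.465 in MC26). With limma, 0 members and 0% of all genes passed in each of the 2 lines, 0 members reached an unadjusted p under 0.05, and the blocked fit also called 0 members. As an average of the lines, 0 members passed (2 with an unadjusted p under 0.05), where 1.14% of genes did.

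**Figure D3:**
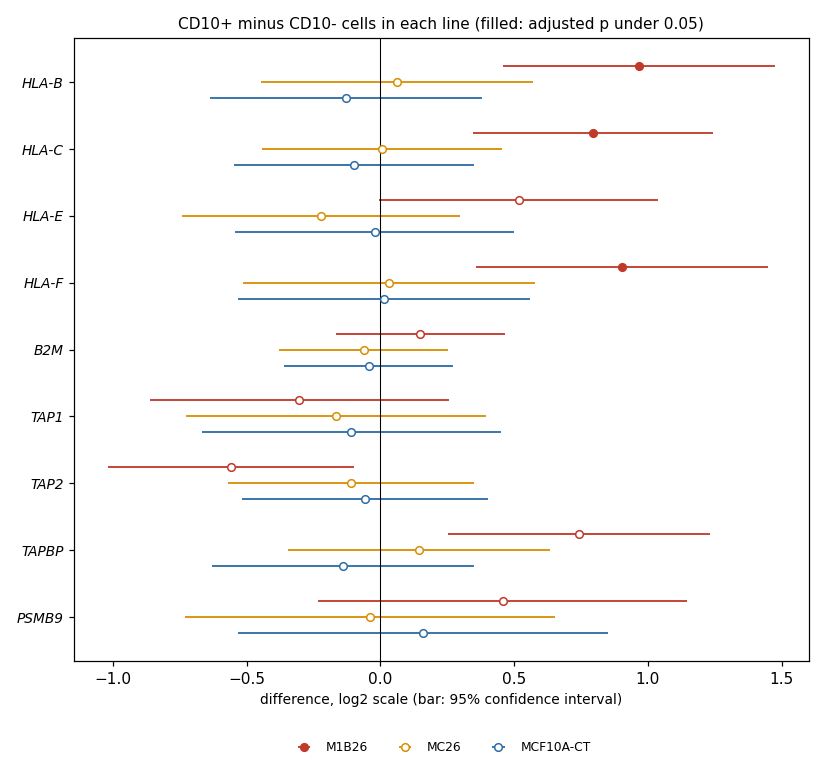
Difference CD10+ minus CD10- on the log2(intensity + 1) scale for each gene in M1B26, MC26 and MCF10A-CT, with 95% confidence intervals from limma; filled points have an adjusted p under 0.05. HLA-B, HLA-C and HLA-F are filled in M1B26, at 0.97, 0.80 and 0.90, and no point is filled in MC26 or MCF10A-CT.

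Whether the CD10 difference itself differed between lines was tested as a difference of differences. Against MCF10A-CT, that of M1B26 was larger by 1.10 ± 0.34 for HLA-B, 0.89 ± 0.30 for HLA-C, 0.89 ± 0.36 for HLA-F and 0.88 ± 0.33 for TAPBP, and none passed (adjusted p = 0.164, 0.216, 0.357 and 0.284). Against MC26 it was larger by 0.91 for HLA-B, 0.79 for HLA-C and 0.87 for HLA-F, and again none passed (adjusted p = 0.294, 0.298 and 0.371). In each of these 2 tests 4 members had an unadjusted p under 0.05, while 1.38% and 1.27% of all genes passed. With the block on the sorted arrays, 4 members passed against MCF10A-CT (HLA-B 0.00106, HLA-C 0.0125, HLA-F 0.0187 and TAPBP 0.0248) and 3 against MC26 (HLA-B 0.0111, HLA-F 0.0233 and HLA-C 0.0356). Over all genes that fit called 1404 against MCF10A-CT and 1328 against MC26, in place of 168 and 154 without the block. The CD10 differences of MC26 and MCF10A-CT did not separate in limma (0 members and 0% of genes called, 0 members with an unadjusted p under 0.05).

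Other genes of the pathway were read from 5 lists, whose counts stand beside the 3.76% of all genes called higher and 2.74% called lower in this comparison. None of the 13 tested genes of peptide supply and loading passed between CD10+ and CD10- M1B26 cells. PSME1, a subunit of the proteasome activator, gave 0.66 (adjusted p = 0.0982), and ERAP2, which trims peptides in the endoplasmic reticulum, gave -0.80 (adjusted p = 0.192). Of 27 regulators, 2 were higher in CD10+ cells and 0 lower: IFNGR1, the ligand-binding chain of the interferon gamma receptor (1.38 ± 0.26, adjusted p = 0.00426), and JAK2, a kinase that signals from it (1.57 ± 0.45, adjusted p = 0.0474). The transcription factors did not pass: NLRC5, the class I transactivator, gave 0.29 (adjusted p = 0.801), IRF1 0.20 (0.762), IRF2 0.14 (0.827), RFX5 0.49 (0.397) and STAT3 -0.46 (0.352). Among 11 class I related genes and natural killer cell ligands, HLA-G rose (1.21, adjusted p = 0.0269), read from a probe set that can bind other HLA genes. MR1, which presents vitamin metabolites, gave 1.44 (0.0808), and CD274, the ligand of PD-1, -1.36 (0.123).

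Of 22 interferon-stimulated genes, 1 was higher in CD10+ M1B26 cells and 0 lower, a share close to that of all genes (3.76% higher). It was IFI6 (1.33, adjusted p = 0.0277). UBE2L6, which conjugates ISG15, gave 1.11 (0.0743), ISG15 itself 1.21 (0.078) and IFI44L 2.45 (0.0949). Of 12 class II genes 5 lay under the filter, among them CD74 and HLA-DRA, and none of the 7 tested passed. HLA-DMA, the class II peptide exchanger, gave 1.42 (adjusted p = 0.0995).

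Among CD10+ cells, 5 of the 9 class I genes were higher in M1B26 than in MC26: TAPBP, B2M, HLA-B, HLA-C and HLA-F. TAPBP read 576.6 and 602.8 in M1B26, against 242.4 and 318.5 in MC26, a difference of 1.08 ± 0.23 (adjusted p = 0.00696 in limma). B2M read 9252 and 9177 in M1B26, against 5739 and 6594 in MC26, a smaller difference (0.58 ± 0.15, adjusted p = 0.0188). The direction for B2M depended on the probe set, with -1.43 from the unmarked one, which is dim, and -0.10 from the mean of all. Both M1B26 arrays were above both MC26 arrays for each of these genes, as they were for 44.3% of all genes.

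HLA-C, at 2991 and 3866 in CD10+ M1B26 cells against 2068 and 1940 in CD10+ MC26 cells, was higher by 0.76 (adjusted p = 0.0285). HLA-F, at 804.8 and 1071 against 575.4 and 428.1 in MC26, was higher by 0.90 (0.0331). HLA-B, at 2802 and 3999 against 2097 and 1835 in MC26, was higher by 0.77 (0.0481). HLA-E gave 1256 and 1541 in M1B26 and 808.1 and 895.7 in MC26, apart but not past the test (0.71, adjusted p = 0.0734). With the block on the sorted arrays HLA-E passed (adjusted p = 0.00195), in a fit that called 3395 of all genes in place of 1421. The remaining peptide supply genes did not pass: TAP1 differed by 0.16, PSMB9 by -0.02 and TAP2 by -0.36. Thus 5 of 9 members were called higher and 0 lower, where 9.12% of all genes were called higher and 2.56% lower. The median difference was 0.71 over the members and 0.20 over all genes. When each array was centred on the median of its tested genes, or quantile normalised, 2 members passed, TAPBP higher and TAP2 lower; with centring the calls over all genes became 506 higher and 608 lower in place of 1110 and 311. Without MC26 CD10+ replicate 1 or without M1B26 CD10+ replicate 2, 0 members passed; without MC26 CD10+ replicate 2 the 2 were B2M and TAPBP, and without M1B26 CD10+ replicate 1 the only one was TAPBP. HLA-B kept its call in 4 of 18 such fits, being lost also without any unsorted array, either CD10+ MCF10A-CT array or either CD10- M1B26 array (adjusted p = 0.0504 to 0.0588).

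Set against CD10+ MCF10A-CT cells, CD10+ MC26 cells gave lower values on both arrays for 7 of the 9 genes, and none passed the test with the values as deposited and no block. The comparisons of MC26 and M1B26 with MCF10A-CT share the control arrays. HLA-F gave 575.4 and 428.1 in CD10+ MC26 cells, against 813.6 and 888.8 in CD10+ MCF10A-CT cells (-0.78, adjusted p = 0.0575). TAPBP gave 242.4 and 318.5 in MC26 and 493.5 and 417.2 in MCF10A-CT (-0.71, adjusted p = 0.0547), and HLA-E 808.1 and 895.7 in MC26 and 1258 and 1615 in MCF10A-CT (-0.74, adjusted p = 0.0562). TAP1, at 215.3 and 243.6 in MC26 against 355.7 and 376.1 in MCF10A-CT, differed by -0.67 (adjusted p = 0.0974). TAP2 was the only gene with both MC26 arrays above both MCF10A-CT arrays, at 375.1 and 438.8 in MC26 against 292 and 242.3 in MCF10A-CT (0.61, adjusted p = 0.0728), while PSMB9 overlapped, at 147.2 and 112.5 in MC26 and 114.8 and 101.3 in MCF10A-CT.

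No member passed in limma between CD10+ MC26 and CD10+ MCF10A-CT cells, although 6 had an unadjusted p under 0.05; 7.99% of all genes were called higher and 5.47% lower. Arrays were apart and lower for 7 members, and apart and higher for 1, where 25.5% and 32.4% of genes were. With arrays centred or quantile normalised 4 members passed, HLA-E, HLA-F and TAPBP in both cases. With the block on the sorted arrays 5 passed: HLA-F (0.000593), HLA-E (0.000794), TAPBP (0.00262), TAP1 (0.00499) and TAP2 (0.0116). Over all genes that fit called 4291, in place of 1639 without the block. The count in the fit without a block was 3 (HLA-E, HLA-F and TAPBP) when either MCF10A-CT CD10- replicate 1 or MCF10A-CT CD10- replicate 2 was left out, and 1 without MCF10A-CT CD10+ replicate 1 (HLA-E) or without either MC26 CD10- array (HLA-F). Between CD10+ M1B26 and CD10+ MCF10A-CT cells, HLA-C came nearest (0.51, adjusted p = 0.0831). There 0 members passed (1 with an unadjusted p under 0.05), where 21.1% of genes were called higher and 5.32% lower and the median over all genes was 0.31. The block on the sorted arrays called 3 members, HLA-B (0.0497) and HLA-C (0.0188) higher and TAP1 lower (0.0324). Over all genes it called 5616, in place of 3219 without the block.

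**Figure D4:**
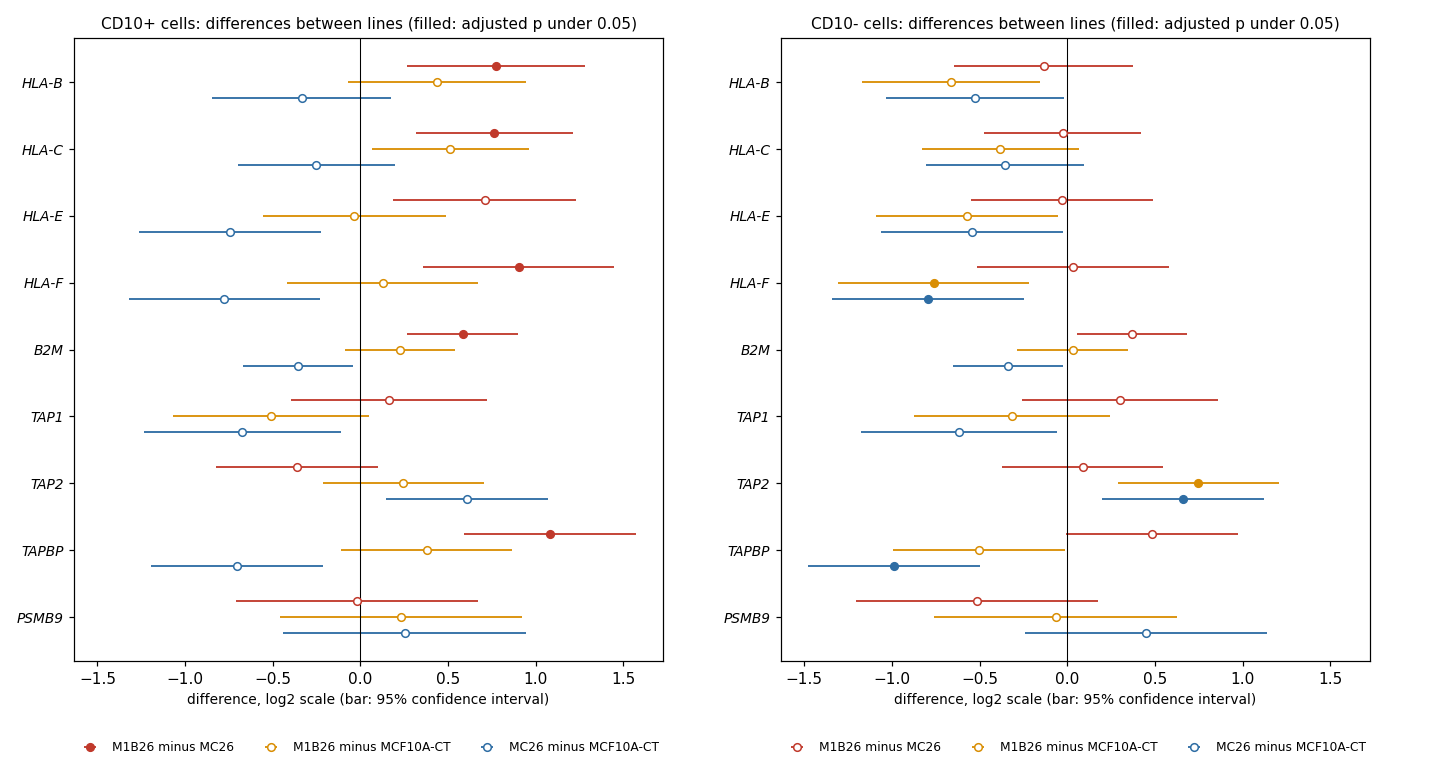
Differences between lines on the log2(intensity + 1) scale within CD10+ and within CD10- cells, with 95% confidence intervals from limma; filled points have an adjusted p under 0.05. In CD10+ cells the 5 filled points are those of M1B26 minus MC26, from B2M at 0.58 to TAPBP at 1.08; in CD10- cells TAP2 is filled above 0 for both transformed lines (0.75 in M1B26, 0.66 in MC26) and HLA-F below 0.

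Among CD10- cells, both transformed lines had more TAP2 and less HLA-F than MCF10A-CT. TAP2 read 568 and 380.9 in CD10- M1B26 cells and 457.9 and 418.3 in CD10- MC26 cells, against 300.4 and 254.7 in CD10- MCF10A-CT cells. It was higher by 0.75 in M1B26 (adjusted p = 0.0203) and by 0.66 in MC26 (adjusted p = 0.0434), with the arrays of each line apart from those of the control. Of all genes, 41.2% in M1B26 and 37.4% in MC26 were likewise apart and higher. HLA-F read 497.3 and 494.7 in CD10- M1B26 cells and 608.5 and 386.2 in CD10- MC26 cells, against 706.6 and 1003 in CD10- MCF10A-CT cells. It was lower by 0.76 ± 0.26 on the log2 scale in M1B26 (adjusted p = 0.0397) and by 0.80 ± 0.26 in MC26 (adjusted p = 0.0408). TAPBP, at 347.6 and 356.8 in M1B26 and 300.2 and 210 in MC26, against 459.6 and 543.5 in MCF10A-CT, gave -0.50 in M1B26 (adjusted p = 0.117) and was lower in MC26, at -0.99 (adjusted p = 0.00922).

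In all, 1 member was higher and 1 lower in CD10- M1B26 cells relative to MCF10A-CT, where 19.8% of genes were called higher and 6.66% lower. In CD10- MC26 cells 1 was higher and 2 lower, where 13.4% and 6.54% were. The block on the sorted arrays added HLA-B (-0.66, adjusted p = 0.00195), HLA-E (-0.57, 0.00958) and TAPBP (0.0319) in M1B26, and HLA-B (-0.53, 0.018), HLA-E (-0.54, 0.0167) and TAP1 (-0.62, 0.00958) in MC26. Over all genes it called 5515 in M1B26 and 4805 in MC26, in place of 3218 and 2431 without the block. Both comparisons use the same 2 CD10- MCF10A-CT arrays, of which replicate 2 was the higher for HLA-B, HLA-C, HLA-E, HLA-F, B2M, TAP1, TAPBP and PSMB9. Without that array 0 members passed in either line. The count was also 0 in M1B26 without M1B26 CD10- replicate 1, 1 (TAP2) without M1B26 CD10- replicate 2 and 4 (HLA-B, HLA-E, HLA-F and TAP2) without MCF10A-CT CD10- replicate 1. In MC26 it was 0 without MC26 CD10- replicate 2 and 1 (TAPBP) without either unsorted MCF10A-CT array. TAP2 in MC26 kept its call in 9 of 18 such fits, and was lost also without MC26 CD10- replicate 1 (adjusted p = 0.196), either unsorted M1B26 array (0.0521) or either CD10+ M1B26 array (0.0608). M1B26 and MC26 were not told apart in CD10- cells, with 0 members called by limma (1 with an unadjusted p under 0.05) and 0.0822% of genes.

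In unsorted cells no member passed between any pair of lines. HLA-B, for instance, read 2243 and 1803 in M1B26, 2232 and 1973 in MC26 and 2001 and 1894 in MCF10A-CT. With limma, 0.674% of genes passed between M1B26 and MCF10A-CT, 0.32% between MC26 and MCF10A-CT and 0.0986% between M1B26 and MC26, and 1, 2 and 0 members had an unadjusted p under 0.05.

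Averaged over the 3 populations, MC26 showed the most calls relative to MCF10A-CT. TAP2 (0.62 ± 0.13, adjusted p = 0.00236) and PSMB9 (0.56 ± 0.19, adjusted p = 0.0341) were higher, and 4 members were lower: TAPBP (-0.64 ± 0.13, adjusted p = 0.00284), TAP1 (-0.55 ± 0.15, adjusted p = 0.0135), HLA-F (-0.50, adjusted p = 0.0185) and B2M (-0.26, adjusted p = 0.0334). TAP1 and TAP2, the chains of the transporter, therefore carried opposite signs with the probe sets used. TAP2 has 3 probe sets above the filter. Among the alternatives run its difference fell as low as 0.226 (highest adjusted p = 0.3 in limma). In M1B26 minus MCF10A-CT on average it fell as low as 0.167 (highest adjusted p = 0.302). Over all genes 19.7% were called higher and 11.5% lower. In unsorted cells the arrays of the 2 lines overlapped for all 4 lower members. HLA-F read 433.7 and 545.9 in unsorted MC26 cells, against 454.1 and 480.5 in unsorted MCF10A-CT cells. B2M read 7388 and 6797 in unsorted MC26 cells, against 6705 and 8290 in unsorted MCF10A-CT cells. HLA-F did not pass without MCF10A-CT CD10- replicate 2, MC26 CD10- replicate 2 or MC26 CD10+ replicate 2. Neither B2M nor PSMB9 passed without MCF10A-CT unsorted replicate 2, MC26 unsorted replicate 2, MCF10A-CT CD10+ replicate 2 or MC26 CD10+ replicate 1. B2M was also lost without MCF10A-CT CD10- replicate 2, MCF10A-CT CD10+ replicate 1 or MC26 CD10- replicate 2, and PSMB9 without MC26 unsorted replicate 1, MCF10A-CT CD10- replicate 1 or MC26 CD10- replicate 1. M1B26 also exceeded MCF10A-CT in TAP2 (0.41, adjusted p = 0.0197), the only member called of 9 where 27% of genes were called higher; it did not pass without M1B26 unsorted replicate 2, MCF10A-CT CD10- replicate 2, MCF10A-CT CD10+ replicate 2 or M1B26 CD10- replicate 1. M1B26 exceeded MC26 in TAPBP (0.63, adjusted p = 0.0087) and B2M (0.38, adjusted p = 0.0116), where 6.56% of genes were called higher. B2M's 3 probe sets did not share a direction in that comparison, since the dimmest of them gave -0.87.

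Of 27 tested regulators, 5 were higher and 2 lower in MC26 than in MCF10A-CT as an average of the populations, where 19.7% of all genes were called higher and 11.5% lower. MC26 exceeded MCF10A-CT in SOCS3, the feedback inhibitor of IL6 signalling (2.73 ± 0.40, adjusted p = 0.000323), and in EZH2, a histone methyltransferase of gene silencing (0.87, adjusted p = 0.000522). IFNGR2, the second chain of the interferon gamma receptor, was lower (-0.65, adjusted p = 0.00515), as was IRF2 (-0.42, adjusted p = 0.0283). NLRC5 gave -0.49 (adjusted p = 0.168) and IRF1 -0.12 (adjusted p = 0.596). Of 13 peptide supply genes 2 were higher and 1 lower: PSME3, of a nuclear proteasome activator, was higher (0.94, adjusted p = 0.00101), ERAP1 was higher (0.60, adjusted p = 0.0137) and PSME1 lower (-0.59, adjusted p = 0.00394). Of 11 class I related genes 4 were higher and 2 lower. MR1 was lower (-1.68, adjusted p = 0.000523) and HLA-G too (-0.66, adjusted p = 0.0122), whereas the stress ligand ULBP2 was higher (1.19, adjusted p = 0.00169). Of 22 interferon-stimulated genes 7 were higher and 5 lower, among them OAS1, lower (-1.28, adjusted p = 0.00102) and IFIT1, higher (0.98, adjusted p = 0.00374). None of 7 class II genes passed. These averages join populations that differed in MCF10A-CT. In sorted minus unsorted cells EZH2 gave -1.37 in MCF10A-CT and 0.02 in MC26, and MR1 2.16 and -0.73. HLA-G gave 1.54 and 0.51, and PSME1 0.78 and -0.11. SOCS3 gave 3.39 and -0.71, so the sorted cells lowered its average. OAS1 (0.01 and -0.43) and ULBP2 (-0.30 and -0.19) moved less in MCF10A-CT. Such averages need not hold in unsorted cells.

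Between CD10+ M1B26 and CD10+ MC26 cells, where 9.12% of all genes were called higher and 2.56% lower (with centring 506 and 608 genes), 4 of 13 tested supply genes were higher and 0 lower: the chaperones CANX (0.61, adjusted p = 0.0187), CALR (0.88, 0.0409) and PDIA3 (0.53, 0.0453), which fold the heavy chain and serve its loading, and PSME1 (0.75, 0.0418). Of 27 regulators 4 were higher and 0 lower, JAK1 (0.88, adjusted p = 0.0147), IRF2 (0.91, 0.0207), IFNGR1 (0.99, 0.0243) and JAK2 (1.57, 0.0322). NLRC5 gave -0.10 (0.93), IRF1 0.23 (0.646) and RFX5 0.42 (0.402). The class I relatives HFE (1.06, adjusted p = 0.00709) and HLA-G (1.21, 0.0186) were higher and the NKG2D ligand RAET1E lower (-0.98, 0.0415), of 11 tested. Among 22 interferon-stimulated genes, IFI6 (1.62, 0.00672) and UBE2L6 (1.49, 0.0128) were higher and HERC5 lower (-1.11, 0.0192). HLA-DMA was the only class II gene called of 7 tested (1.65, 0.0392).

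In MCF10A-CT, HLA-E, HLA-F, TAP1 and TAPBP were higher in sorted than in unsorted cells of the line. HLA-E read 1258, 1615, 1148 and 1822 on the sorted MCF10A-CT arrays, against 694.6 and 812 on the unsorted ones. HLA-F read 813.6, 888.8, 706.6 and 1003 on the sorted arrays, against 454.1 and 480.5 on the unsorted ones. TAP1 gave 355.7, 376.1, 338.2 and 460 on the sorted arrays, against 233.1 and 201.7 on the unsorted ones. TAPBP gave 493.5, 417.2, 459.6 and 543.5 on the sorted arrays, against 264.3 and 338.7 on the unsorted ones. Every sorted array was above both unsorted arrays for these genes and for HLA-B and PSMB9, and below both for TAP2. How many of all genes separated in this way was not counted. The differences in MCF10A-CT were 0.93 for HLA-E (adjusted p = 0.00704 in limma), 0.86 for HLA-F (0.0142), 0.81 for TAP1 (0.0212) and 0.67 for TAPBP (0.0269). Thus 4 members were higher and 0 lower, where 6.58% of genes were called higher and 15.6% lower, and PSMB9 gave 0.76 (adjusted p = 0.0659). This within-line comparison was added after the data were seen. The count was 0 without MCF10A-CT unsorted replicate 1, 1 (HLA-E) without MCF10A-CT unsorted replicate 2 and 2 (HLA-E and HLA-F) without MCF10A-CT CD10- replicate 2.

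In M1B26 and MC26 0 members passed between sorted and unsorted cells (2 and 1 with an unadjusted p under 0.05 in limma), where 4.21% and 0.822% of genes did. The sorting difference of M1B26 or MC26 minus that of MCF10A-CT called 0 members (0 and 3 with an unadjusted p under 0.05), where 11.9% and 6.07% of genes passed, and that of M1B26 minus that of MC26 called 0 members and 0% of genes (0 with an unadjusted p under 0.05). With the 3 lines averaged, TAP1 (0.61 ± 0.13, adjusted p = 0.00696), HLA-E (0.40, adjusted p = 0.0374) and TAPBP (0.40, adjusted p = 0.0299) were higher in sorted cells, where 6.81% of genes were called higher and 8.44% lower. Only TAP1 passed when MCF10A-CT unsorted replicate 1, MC26 unsorted replicate 2, M1B26 unsorted replicate 2, MC26 CD10- replicate 1 or M1B26 CD10+ replicate 2 was left out, and over the 18 such fits HLA-E kept its call in 7 and TAPBP in 12. The ratio of 3′ to 5′ signal of ACTB, a measure of RNA and of its labelling, was 0.154 to 0.419 on the log2 scale on the sorted arrays and 0.637 to 1.097 on the unsorted arrays. Its part in the result was not tested.

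**Figure D5:**
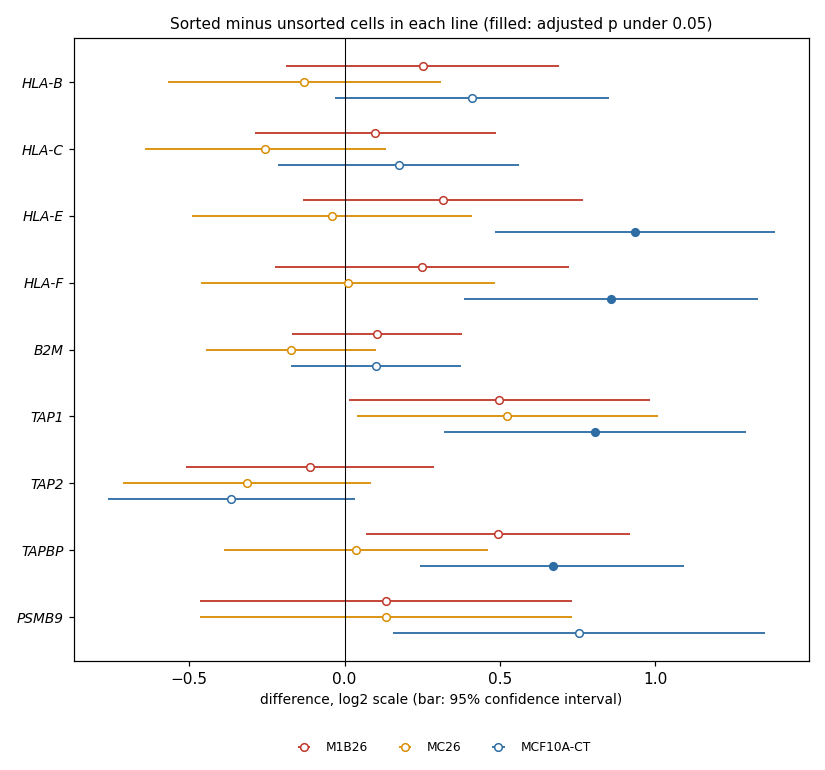
Difference sorted minus unsorted on the log2(intensity + 1) scale for each gene in M1B26, MC26 and MCF10A-CT, with 95% confidence intervals from limma; filled points have an adjusted p under 0.05. The 4 filled points, HLA-E, HLA-F, TAP1 and TAPBP, all belong to MCF10A-CT and lie between 0.67 and 0.93.

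Over the 18 arrays the members varied together to different degrees. HLA-B correlated with HLA-C at r = 0.897 and with HLA-F at 0.889, HLA-E with HLA-F at 0.864, and HLA-F with TAPBP at 0.839. TAP2 ran against the others, at -0.715 with HLA-F and -0.613 with TAP1, its partner in the pump, and correlated positively with PSMB9 alone (0.11). TAP1 and HLA-C correlated at 0.149. These values describe 18 arrays that share lines, sorts and scaling, and HLA probe sets can share signal. The genes outside the set with a profile most like the mean of the 9 members were POLD4 (r = 0.937), PSAP (0.915), LAMTOR2 (0.908), NME3 (0.907), PRAF2 (0.905), SLC30A4 (0.901), HLA-G (0.893), IL10RB (0.892), CD63 (0.891) and UBE2L6 (0.889).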

How the data were processed

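The deposited table gives, for every probe set on every array, a linear intensity that the authors made with Affymetrix Expression Console and MAS5 according to the submitters' processing notes. The study's methods name RMA with quantile normalisation; the deposited intensities show neither, since only the medians are equal on all arrays (16.65) and upper quartiles run from 95.1 to 123.6. RNA was labelled with a 3′ IVT kit.

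After a log2(intensity + 1) transform, the probe set of highest mean over the 18 arrays stood for each of 19775 genes. Genes with a mean at or under log2 3.93 (intensity 14.3) were left out, which left 12171. R 4.3.3 and limma 3.58.1 fitted 9 group means (lmFit, then eBayes with an intensity trend, 9 residual degrees of freedom, 6.28 prior ones) and ran two-sided tests, with Benjamini-Hochberg adjusted p under 0.05 as the threshold in each of 20 contrasts; 6 more (sorted minus unsorted within lines and their differences) were added after the data were seen. The fit was tested on simulated data. Values after ± are SEs. The number of arrays limits the precision (median SE of a member within a line 0.239), and p-values measure the spread between arrays labelled as biological replicates, with nothing else to say how separate they were.

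Replicate numbers were checked for pairing. Deviations from the group means of same-numbered CD10+ and CD10- arrays correlated at 0.184 in M1B26, 0.361 in MC26 and 0.635 in MCF10A-CT over 12171 genes. The numbers were therefore taken to pair the sorted samples. Those of sorted with unsorted arrays correlated at -0.015 to 0.122 and were not. Pairing is least certain in M1B26, where 0.184 lay near the 0.122 of its unsorted with its CD10+ arrays.

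The members, lists and comparisons were chosen with earlier results of these data known. All 9 members are named, and of each list at most 4 genes with the smallest p, besides the transcription regulators. Alternatives were another pseudocount, quantile normalisation or centring, no filter, no trend, a replicate block, the compared groups alone, other probe sets, the methods' t-test, and leaving out each array in turn.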

Additional observations from a re-analysis of the deposited data

How the results depend on the processing

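Of 29 calls of a member, 3 held under every alternative run: TAP1 and TAPBP lower in MC26 than in MCF10A-CT on average, and TAP1 higher in sorted than in unsorted cells on average. The methods' t-test, the block on sorted arrays alone and the fit without sorted MCF10A-CT arrays could not be run on these averages. TAP1 has 1 probe set, and it is marked, so each of its calls met 26 alternatives. The call of TAPBP met 27, and other calls up to 30. Direction reversed only for B2M, whose probe sets disagree: M1B26 minus MC26 was -1.43 in CD10+ cells and -0.874 on average with unmarked probe sets, and -0.103 and -0.0683 with the mean of all probe sets. Without the 4 sorted MCF10A-CT arrays, an alternative chosen after seeing the data, the 3 calls in CD10+ minus CD10- M1B26 cells (adjusted p = 0.0225 to 0.0387) and all calls in M1B26 minus MC26 held in limma. None of these comparisons uses those arrays, so their differences could not change, only the estimate of the spread. Comparisons that use those arrays could not be fitted in that alternative. The cause of the other changes was not tested.

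For CD10+ minus CD10- in M1B26 (3 members called), the count was 1 with no filter and 0 with no trend, with unmarked probe sets or with the methods' t-test. HLA-B, HLA-C, HLA-F and TAP1 have no unmarked probe set above the filter. The fit with unmarked probe sets therefore could not test them in any comparison, and its 0 here says nothing of the 3 calls. For MC26 minus MCF10A-CT in CD10- cells (3 called), it was 5 with arrays centred, 1 with no filter or no trend, and 0 with the groups compared alone or the methods' t-test. For M1B26 minus MCF10A-CT in CD10- cells (2 called), it was 5 with arrays centred or quantile normalised, 1 with no filter or no trend, and 0 with the groups alone or the methods' t-test. In CD10+ cells, MC26 minus MCF10A-CT (0 called) had 4 with arrays centred or quantile normalised and 1 with unmarked probe sets or the mean of all probe sets. M1B26 minus MCF10A-CT (0 called) had 1, TAP1, with arrays centred or quantile normalised. M1B26 minus MC26 in CD10+ cells (5 called) had 3 with no filter, 1 with no trend or unmarked probe sets, and 0 with the methods' t-test. It had 2 with centring or quantile normalisation (TAP2 and TAPBP) and a different 2 with the mean of all probe sets (HLA-B and HLA-C). TAPBP thus did not pass with the mean of its probe sets. On average over the populations, M1B26 minus MCF10A-CT (1 called) had 3 with unmarked probe sets, and M1B26 minus MC26 (2 called) had 1 with quantile normalisation, no trend or unmarked probe sets and 0 with the mean of all probe sets. Sorted minus unsorted gave 1 on average (3 called) with unmarked probe sets, and 2 in MCF10A-CT (4 called) with the groups alone or unmarked probe sets. The sorting difference of MC26 minus that of MCF10A-CT (0 called) had 1, HLA-E, with quantile normalisation, centring or unmarked probe sets, and that of M1B26 had 1, HLA-E, with unmarked probe sets. After Benjamini-Hochberg adjustment the methods' t-test called 0 members in every comparison of 2 groups, with at most 3 at p under 0.05 before it.

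With the replicate block on all arrays, the count was 4 for M1B26 minus MCF10A-CT in CD10- cells, 3 and 1 for MC26 and M1B26 minus MCF10A-CT in CD10+ cells, and 1 (HLA-E) for the sorting difference of MC26 minus that of MCF10A-CT. With sorted arrays alone in a fit with the replicate block, the counts were 6 for CD10+ minus CD10- in M1B26, 5 and 6 for M1B26 and MC26 minus MCF10A-CT in CD10- cells, 3 and 5 for them in CD10+ cells, and 4 and 3 for the CD10 difference of M1B26 minus that of MCF10A-CT and of MC26. In each of these comparisons the fit on sorted arrays also called more of all genes than the fit without the block. The block moved no other count of members by over 1.5 times.

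Leaving out each array in turn gave 0 to 3 members for CD10+ minus CD10- in M1B26, 0 to 4 for either line minus MCF10A-CT in CD10- cells, 0 to 3 for MC26 minus MCF10A-CT and 0 to 6 for M1B26 minus MC26 in CD10+ cells, 4 to 6 for MC26 minus MCF10A-CT and 0 to 1 for M1B26 minus MCF10A-CT on average, 1 to 4 for sorted minus unsorted on average, 0 to 5 for it in MCF10A-CT, and 0 to 1 for the sorting difference of MC26 minus that of MCF10A-CT. Centring moved the calls over all genes in M1B26 minus MCF10A-CT to 1028 higher and 1240 lower in CD10+ cells, in place of 2571 and 648, and to 1641 and 1476 in CD10- cells, in place of 2407 and 811. In sorted minus unsorted MCF10A-CT cells it gave 1418 higher and 1499 lower, in place of 801 and 1904.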
